A study of Rattus norvegicus with 9 samples.

Results

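The autophagy machinery genes are the core set of genes whose products build the autophagosome, load it with cargo and deliver it to the lysosome. They were given as a list of 42 rat symbols, and 41 of them were in the deposited table of 17465 genes. All 41 had a mean of at least 1 CPM (counts-per-million of the TMM-scaled library size) over the 9 libraries and all 41 entered the tests. Atg2b was not analysed here.

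RNA was sequenced, after ribosomal RNA had been depleted, from 9 lungs of fetal Sprague-Dawley rats. The control group held 3 control lungs without treatment, and the hypoplastic group 3 hypoplastic lungs, also untreated. The treated group held 3 hypoplastic lungs given AFSC-EV, vesicles shed by stem cells from amniotic fluid. The series title names oligohydramnios, a shortage of amniotic fluid, as what made the lungs hypoplastic (too small). The sources used here give no fetal age, no way in which the fluid was reduced and no dose or route of the vesicles.

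Autophagy wraps cytoplasm in a double membrane and digests it in the lysosome. The kinase complex around Ulk1 starts the process when mTOR signalling is low, a lipid kinase complex around Becn1 marks the growing membrane, and conjugation enzymes attach Atg8 family proteins (LC3 and GABARAP proteins) to it, where cargo receptors bind. In lung, the type II cell of the alveolar epithelium stores surfactant in lamellar bodies, which are lysosome-related organelles. Much of the control of the pathway acts on proteins, so transcript levels do not measure autophagic activity.

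Library totals ran from 56922779 to 88243188 estimated counts, and the smallest value of any member in any library was 90 counts. Lung epithelium markers were present in all libraries, with all 10 listed genes at a mean above 1 CPM, while all 6 liver genes and 4 of 5 thymus genes were below it. Heart muscle markers (7 genes, Myh7 and Nppa below 1 CPM) summed to 241.5 and 113.5 CPM in hypoplastic libraries 1 and 2 and to between 4.0 and 18.05 CPM in the other 7. Xist was high in 1 of 3 control libraries and in 2 of 3 libraries of each other group, so the sexes were not balanced. These are bulk samples, in which fewer cells of a type and less RNA per cell cannot be told apart.

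Summed over the list, the autophagy genes were at much the same level in the 3 groups, with genes of high CPM weighing most. The CPM of the 41 genes summed to 3025 ± 136 in control, 3036 ± 155 in hypoplastic and 2914 ± 181 in treated lungs (SD, n = 3 libraries each). No member passed an adjusted p of 0.05 in edgeR's quasi-likelihood test in any of the 3 comparisons. The background over all 12966 genes tested was 0.00771% of genes for hypoplastic against control and 0.0% for each of the others. With so few calls over all genes, the lack of calls here does not show equal levels. Log2 fold changes of single members ran from -0.58 (Map1lc3a) to 0.30 (Gabarapl1) for hypoplastic against control. The median ratio of the highest to the lowest of the 9 libraries was 1.42 for the members, from 1.17 to 1.95. It was 1.55 over 11342 tested genes with a symbol, a value above 0 in every library and a mean of at least 1 CPM. These genes were not matched to the members for level.

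**Figure D1:**
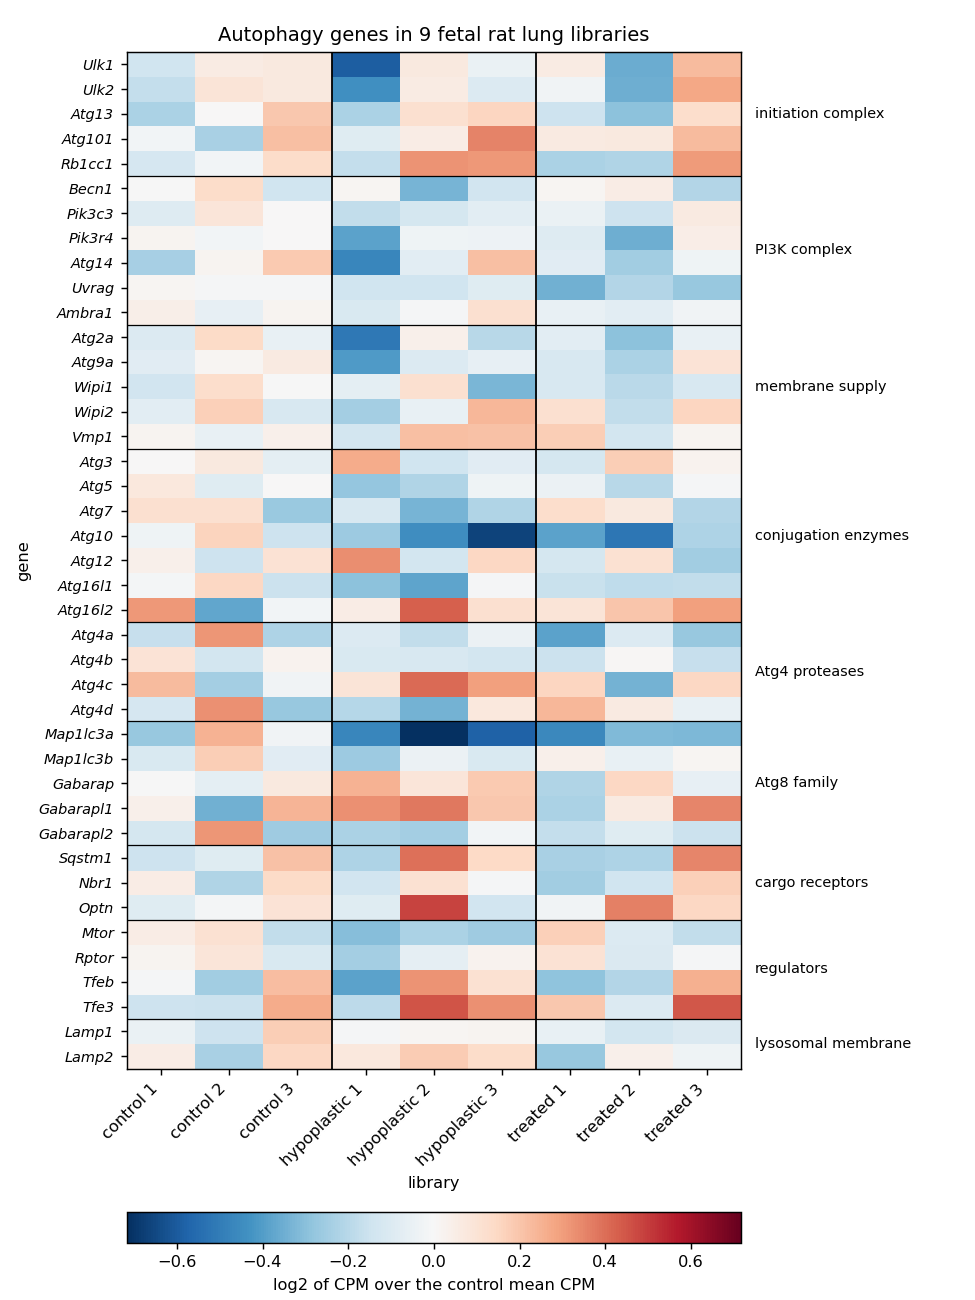
Level of the 41 autophagy genes (rows, grouped by role) in each of the 9 libraries (columns), as the log2 of CPM over the mean CPM of the 3 control libraries. Map1lc3a lies below the control mean (blue) in all 6 hypoplastic and treated libraries. The same holds for Uvrag, Atg10, Atg5, Atg16l1, Atg4a and Gabarapl2, by small margins in some libraries. Since the control mean sets the colours, every row changes colour among the control libraries. Ulk1 also changes colour among the hypoplastic libraries, where it ran from 52.41 to 82.66 CPM.

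Hypoplastic and control lungs were compared to see what the hypoplasia model changed. Of the 41 members, 17 had a log2 fold change above 0 and 24 one below 0 (background 48.1% of all genes below 0). The median was -0.09, against 0.01 over all genes tested. At an unadjusted p under 0.05 there were 0 higher and 2 lower members, Map1lc3a and Atg10 (background 6.67% of all genes higher and 5.69% lower). Among the other tools, DESeq2 called 1 member, Map1lc3a, with a background of 1.63% of genes, and limma voom called 0. The count of 2 was 5 without control library 3 and 1 without control library 1 or 2. The median without hypoplastic library 1 was -0.02, and without control library 2 it was -0.04.

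Treated and untreated hypoplastic lungs were compared to see what the vesicles changed. Here 22 members were above 0 and 19 below (background 51.9% of all genes below 0), with a median log2 fold change of 0.0042 against -0.01 over all genes. No member had an unadjusted p under 0.05 (background 2.0% higher and 3.56% lower), and DESeq2 (background 0.14%) and limma voom called 0. There were 2 such members without treated library 3 and 1 without hypoplastic library 2 or treated library 2. Leaving out 1 of the 6 libraries moved the median from -0.0606, without hypoplastic library 1, to 0.0318, without treated library 1.

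Treated and control lungs were compared to see what differed after treatment. In this comparison 11 members were above 0 and 30 below (background 49.4% of all genes below 0), with a median of -0.04 against 0.0028 over all genes. Uvrag and Map1lc3a had an unadjusted p under 0.05, both lower in treated lungs (background 1.67% higher and 2.5% lower), and DESeq2 (background 0.108%) and limma voom called 0. The count of 2 was 0 without treated library 1 and 1 without control library 1 or 2. The 3 comparisons share libraries and are not independent of each other.

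The width of the intervals gives what these libraries could show. For all 41 members the 95% interval of the fold change lay within 2-fold either way in each comparison, which held for 74.6%, 77.4% and 77.6% of all genes tested. Within 1.5-fold lay the intervals of 34 members for hypoplastic against control, 36 for treated against hypoplastic and 35 for treated against control, with backgrounds of 48.8%, 54.2% and 55.1%. The backgrounds were not matched to the members for level and include genes under 1 CPM in most libraries. The higher shares among the members therefore do not show that they were unusually stable. Intervals are per gene, from the edgeR standard error, and are not adjusted for the number of genes.

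**Figure D2:**
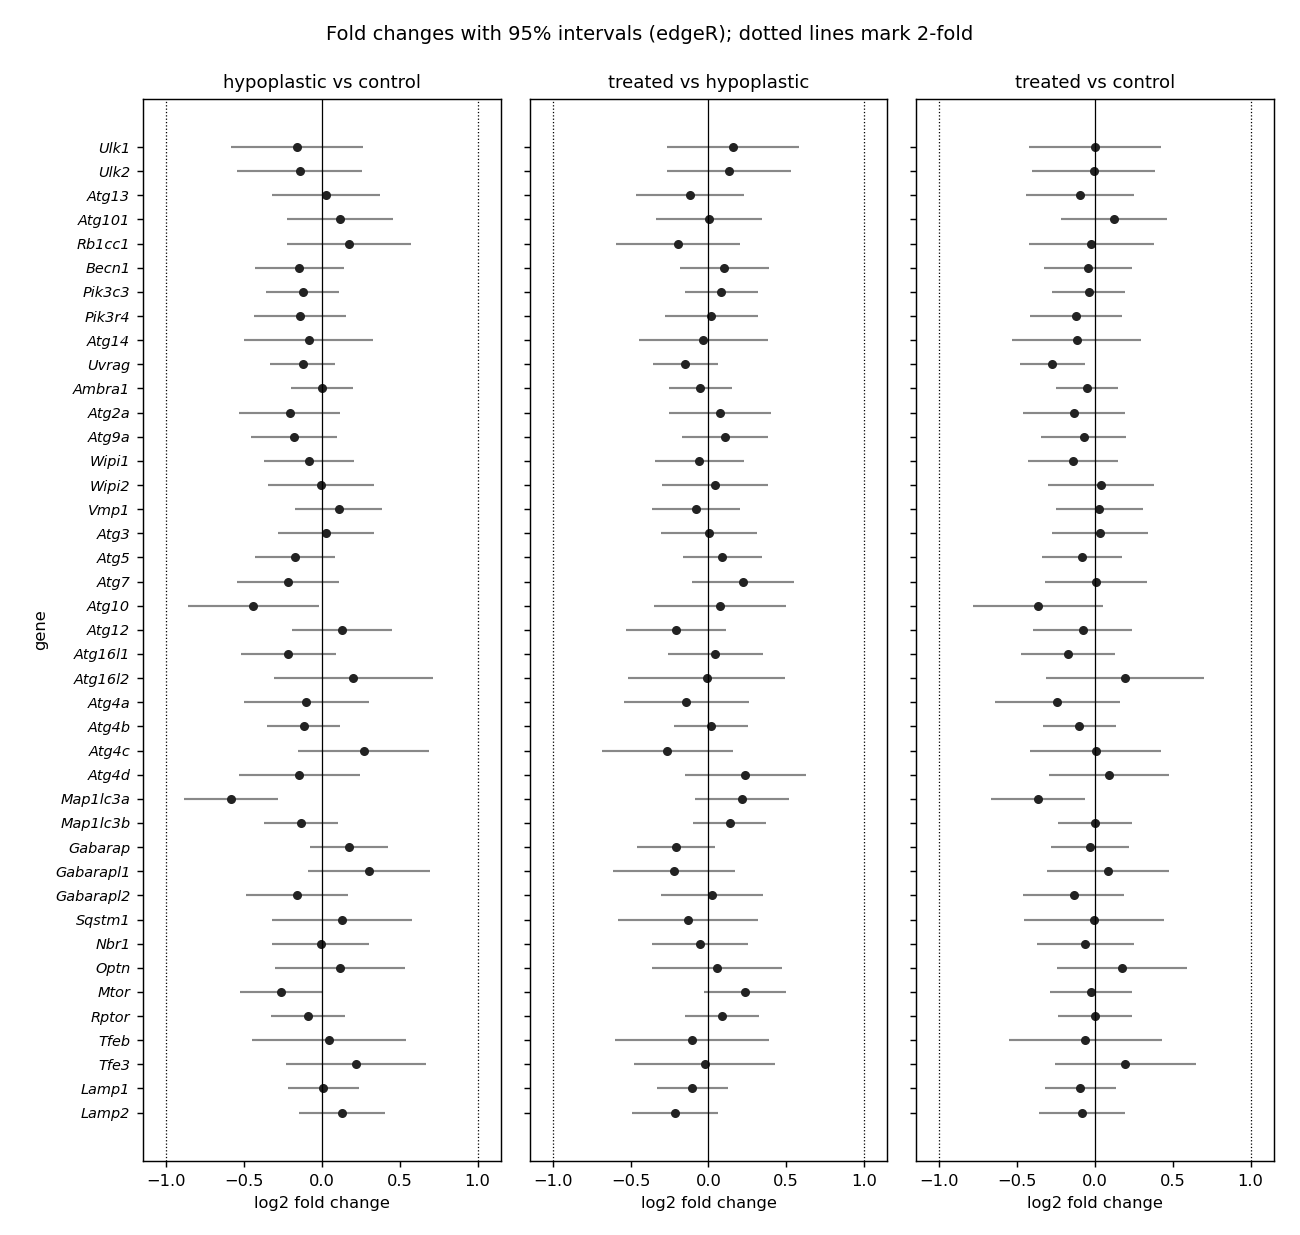
Log2 fold change (points) and 95% interval (lines) of each of the 41 autophagy genes in the 3 comparisons, from edgeR. All intervals lie inside the dotted lines at 2-fold. Of hypoplastic against control, the intervals of Map1lc3a (-0.886 to -0.282) and Atg10 (-0.863 to -0.02) leave out 0.

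The kinase complex that starts autophagy holds Ulk1 and Ulk2, related kinases that can stand in for each other, with Atg13, Atg101 and the scaffold Rb1cc1 (FIP200). Ulk1 was at 71.49, 82.14 and 82.73 CPM in control libraries 1 to 3. It was at 52.41, 82.66 and 76.27 CPM in the hypoplastic libraries and at 82.09, 61.68 and 92.24 CPM in the treated libraries. The groups overlapped, with hypoplastic library 1 and treated library 2 the lowest of the 9. The log2 fold change of Ulk1 was -0.16 (SE 0.19, 95% interval -0.586 to 0.263) for hypoplastic against control and 0.16 (SE 0.189, -0.265 to 0.584) for treated against hypoplastic. The sign of both turned without hypoplastic library 1, with values of 0.0118 and -0.014.

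Ulk2 showed the same low libraries, at 39.92 CPM in hypoplastic library 1 and 42.47 CPM in treated library 2, against 48.09 to 65.75 CPM in the other 7. Of all 820 pairs of members, Ulk1 and Ulk2 were the most alike over the 9 libraries, with a Pearson r of log2 CPM of 0.967 and a Spearman rho of 0.95. The r was 0.965 for deviations from the group means and 0.966 without the 2 libraries farthest from the Ulk1 median. The ratio of Ulk1 to Ulk2 CPM ran from 1.31, in hypoplastic library 1, to 1.54. Over all pairs the median r was 0.144, from -0.919 to 0.967. These r are descriptions over libraries that share depth, scaling and group.

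None of the 5 genes of the kinase complex had library values free of overlap between groups in any comparison. Rb1cc1 was at 88.66 to 105.3 CPM in control, 85.41 to 120.4 CPM in hypoplastic and 82.35 to 119.0 CPM in treated libraries. Atg13, a subunit that mTOR phosphorylates, was at 60.73 to 80.98 CPM in control, 60.69 to 78.82 CPM in hypoplastic and 57.78 to 77.37 CPM in treated libraries. Atg101, its binding partner, was at 27.11 CPM ± 4.25, 29.45 CPM ± 4.71 and 29.47 CPM ± 1.91 (SD, n = 3) in the same order.

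The lipid kinase complex makes the phosphoinositide that marks the new membrane. Its members are the kinase Pik3c3 (VPS34), its partner Pik3r4 (VPS15), Becn1 (beclin), and the subunits Atg14 and Uvrag that send the complex to different sites, along with the activator Ambra1. Becn1 was at 43.37, 47.55 and 39.31 CPM in control, 43.77, 34.44 and 39.51 CPM in hypoplastic and 43.75, 45.01 and 37.52 CPM in treated libraries. The groups overlapped, and the log2 fold change was -0.15 (SE 0.127, -0.43 to 0.139) for hypoplastic against control and 0.10 (SE 0.127, -0.183 to 0.386) for treated against hypoplastic.

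Uvrag, which takes part in autophagosome maturation and endosome traffic, was at 30.07, 29.68 and 29.67 CPM in control, 26.99, 26.99 and 28.04 CPM in hypoplastic and 23.49, 25.78 and 24.68 CPM in treated libraries. The libraries of a group lay close together, and the groups did not overlap in any of the 3 comparisons. The highest values were those of the control libraries and the lowest those of the treated libraries. For treated against control the log2 fold change was -0.27 (SE 0.093, unadjusted p 0.0153, edgeR adjusted p 0.998), and over all alternatives the adjusted p ran from 0.487 to 1.0. The log2 fold change was -0.12 (edgeR adjusted p 0.607) for hypoplastic against control and -0.15 (edgeR adjusted p 0.921) for treated against hypoplastic.

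Few members were without overlap of the libraries, with more lower than higher in each comparison. No test set these counts against the background. For hypoplastic against control 1 member, Gabarap, was higher in this way and 5 were lower, Pik3r4, Uvrag, Atg10, Map1lc3a and Mtor (background 7.68% higher and 9.05% lower). For treated against hypoplastic 2 were higher, Map1lc3a and Mtor, and 3 lower, Uvrag, Lamp1 and Lamp2 (background 5.07% and 4.74%). For treated against control 0 were higher and 4 lower, Uvrag, Atg10, Atg16l1 and Map1lc3a (background 4.37% and 5.02%).

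Of the remaining members of the lipid kinase complex, only Pik3r4 had groups without overlap, and only for hypoplastic against control. Pik3c3 was at 27.24 CPM ± 1.7, 24.99 CPM ± 0.886 and 26.48 CPM ± 1.95 (SD, n = 3) in control, hypoplastic and treated lungs. Pik3r4 was at 50.17 to 51.55 CPM in control, 38.96 to 49.87 CPM in hypoplastic and 39.85 to 52.61 CPM in treated libraries. Hypoplastic library 1 was the lowest. For hypoplastic against control its log2 fold change was -0.14 (SE 0.133, edgeR adjusted p 0.693). Atg14 was at 17.3, 16.32 and 15.95 CPM and Ambra1 at 89.92, 89.98 and 86.79 CPM, as means of the control, hypoplastic and treated libraries.

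Membrane is supplied to the growing autophagosome by the lipid scramblase Atg9a, the lipid transfer protein Atg2a, the phosphoinositide-binding proteins Wipi1 and Wipi2, and the endoplasmic reticulum protein Vmp1. Of these 5 genes, 4 had a log2 fold change below 0 for hypoplastic against control, from -0.21 (Atg2a) to -0.0051 (Wipi2), and 1 above, Vmp1 at 0.11. Wipi1 was at 31.84, 38.24 and 34.89 CPM in control, 33.37, 37.85 and 27.93 CPM in hypoplastic and 32.32, 30.55 and 32.33 CPM in treated libraries. All of these ranges overlapped, and Wipi1 differed by -0.14 (SE 0.129, edgeR adjusted p 0.998) on the log2 scale between treated and control lungs. Atg9a was also low in hypoplastic library 1, at 68.06 CPM against 77.18 to 96.69 CPM in the other libraries, and its r with Ulk1 was 0.925. That r was 0.631 without the 2 libraries farthest from the Ulk1 median.

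Hypoplastic library 1 was the lowest of the 9 for 16 of the 41 members, and control library 2 the highest for 11. Hypoplastic library 2 was the highest for 10 and the lowest for 6, and treated library 2 was the highest for 0. Summed over the members, the libraries ran from 2779 CPM in treated library 1 to 3182 CPM in control library 3, with 2858 CPM in hypoplastic library 1. Members of high CPM weigh most in this sum, so it does not show whether shifts between genes cancelled.

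The conjugation enzymes attach Atg8 proteins to lipid. Atg7 is the activating enzyme of the pathway, Atg3 and Atg10 are its transfer enzymes, and Atg12 is joined to Atg5 and acts with Atg16l1 or Atg16l2. Of these 7 genes, 3 were above 0 and 4 below for hypoplastic against control, with 1 lower at an unadjusted p under 0.05 (background 48.1% of all genes below 0 and 5.69% lower at that p).

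That gene was Atg10, which transfers Atg12 to Atg5. Its level was 4.152, 4.744 and 3.824 CPM in control, 3.538, 3.119 and 2.679 CPM in hypoplastic and 3.252, 2.965 and 3.641 CPM in treated libraries. All 6 hypoplastic and treated libraries lay below all 3 control libraries. In log2 terms the change was -0.44 (SE 0.188, unadjusted p 0.0419, edgeR adjusted p 0.39) for hypoplastic against control and -0.37 (SE 0.186, edgeR adjusted p 0.998) for treated against control. Over all alternatives the adjusted p of the former ran from 0.313 to 0.833, and the change from -0.55 to -0.35 when 1 library was left out.

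Atg7 was at 23.65, 23.63 and 18.17 CPM in control, 20.11, 17.34 and 18.77 CPM in hypoplastic and 23.82, 22.91 and 18.87 CPM in treated libraries. Control library 3 and treated library 3 lay within the hypoplastic range, and the groups overlapped. Its log2 fold change was -0.22 (SE 0.147, edgeR adjusted p 0.562) for hypoplastic against control and 0.22 (SE 0.146, edgeR adjusted p 0.924) for treated against hypoplastic.

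Atg5, which every canonical autophagosome needs, was at 26.24, 23.49 and 24.97 CPM in control, 20.51, 21.42 and 24.42 CPM in hypoplastic and 24.16, 21.69 and 24.73 CPM in treated libraries. Hypoplastic libraries 1 and 2 were the lowest, and hypoplastic library 3 lay within the control range. The fold change of Atg5, as log2, was -0.17 (SE 0.115, -0.428 to 0.085) for hypoplastic against control and 0.09 (SE 0.114, -0.167 to 0.346) for treated against hypoplastic.

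Atg16l1, which places the enzyme complex on the membrane, was at 18.17, 20.37 and 16.52 CPM in control, 14.97, 14.12 and 18.26 CPM in hypoplastic and 16.42, 16.18 and 16.21 CPM in treated libraries. The treated libraries lay closely together and just below the lowest control library. The log2 fold change was -0.22 (edgeR adjusted p 0.534) for hypoplastic against control and -0.17 (edgeR adjusted p 0.998) for treated against control. Its relative Atg16l2 was at 2.076 CPM ± 0.485, 2.396 CPM ± 0.347 and 2.377 CPM ± 0.164 (SD, n = 3) in control, hypoplastic and treated lungs. Atg3 was at 23.6, 24.02 and 24.1 CPM and Atg12 at 68.33, 74.73 and 64.64 CPM, as group means in that order.

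The Atg4 proteases cut Atg8 proteins, first to expose the residue used for conjugation and later to release them from the membrane. Atg4a was at 6.756, 9.435 and 6.496 CPM in control, 7.076, 6.695 and 7.348 CPM in hypoplastic and 5.793, 7.055 and 6.27 CPM in treated libraries. Control library 2 stood above the other 8, and the log2 fold change of treated against control was -0.24 (SE 0.179, edgeR adjusted p 0.998), or -0.06 without that library. Atg4b, the main protease of the family, was at 29.13 CPM ± 2.34, 26.84 CPM ± 0.191 and 27.16 CPM ± 1.87 (SD, n = 3) in control, hypoplastic and treated lungs. Group means in the same order were 8.662, 10.44 and 8.696 CPM for Atg4c and 36.68, 33.14 and 39.02 CPM for Atg4d, and their libraries overlapped in each comparison.

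The Atg8 family coats the autophagosome and recruits cargo. In hypoplastic against control lungs 2 of its 5 genes were above 0 (Gabarap and Gabarapl1) and 3 below (Map1lc3a, Map1lc3b and Gabarapl2), and none passed edgeR's threshold. RefSeq lists pseudogenes of Map1lc3b, Gabarap and Gabarapl2, and of the receptor Sqstm1. The counting of reads that match several genes is unknown here, so the levels of these 4 genes are uncertain.

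Map1lc3a, which encodes LC3A, had the smallest p of all members for hypoplastic against control. It was at 108.4, 155.5 and 128.8 CPM in control, 94.59, 79.64 and 87.71 CPM in hypoplastic and 94.98, 105.0 and 104.6 CPM in treated libraries. The control libraries were the highest and the hypoplastic libraries the lowest, and no groups overlapped in any comparison. The margin between hypoplastic and treated libraries was narrow (94.59 against 94.98 CPM). The level was 130.9 CPM ± 23.6 in control, 87.31 CPM ± 7.49 in hypoplastic and 101.5 CPM ± 5.66 in treated lungs (SD, n = 3).

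For hypoplastic against control the log2 fold change of Map1lc3a was -0.58 (SE 0.135, 95% interval -0.886 to -0.282), a 33.3% lower level, with an unadjusted p of 0.00163 and an edgeR adjusted p of 0.317. The adjusted p was 0.0201 by DESeq2, the lowest among the alternatives, and at most 0.762, by edgeR without control library 2. Without that library the change was -0.44, and over the 6 libraries left out in turn it ran from -0.70 to -0.44. For treated against hypoplastic the change was 0.22 (SE 0.134, -0.084 to 0.518, edgeR adjusted p 0.921), and for treated against control -0.37 (SE 0.134, edgeR adjusted p 0.998).

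Markers of the lung epithelium were, like Map1lc3a, lower in hypoplastic than in control libraries and higher in treated than in hypoplastic libraries, without overlap. The 10 markers, surfactant and type I cell genes among them, summed to 2982 to 5205 CPM in control, 2345 to 2472 CPM in hypoplastic and 2791 to 3304 CPM in treated libraries, with control library 2 highest for both the sum and Map1lc3a. Among the treated libraries the order was opposite at the ends, since library 1 had the highest sum (3304 CPM) and the lowest Map1lc3a (94.98 CPM). That library also lay above control library 1 in the sum (2982 CPM) and below it in Map1lc3a (108.4 CPM). The 6 neutrophil markers summed to 17.53 to 25.17 CPM in control and 94.31 to 181.4 CPM in hypoplastic libraries, with Elane under 1 CPM. In the treated libraries this sum lay above all control libraries, with a lowest value of 43.3 CPM and a median of 62.47 CPM, and its highest overlapped the hypoplastic range. Control library 2 was also the highest in red cell markers (10630 CPM). It was the lowest in macrophage (20.67 CPM) and in lung mesenchyme and endothelium markers (1110 CPM). The part of any of these cell types in the level of Map1lc3a was not tested. Heart markers summed to 241.5, 113.5 and 4.0 CPM in hypoplastic libraries 1 to 3, where Map1lc3a was at 94.59, 79.64 and 87.71 CPM. The part of heart tissue was not tested either.

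**Figure D3:**
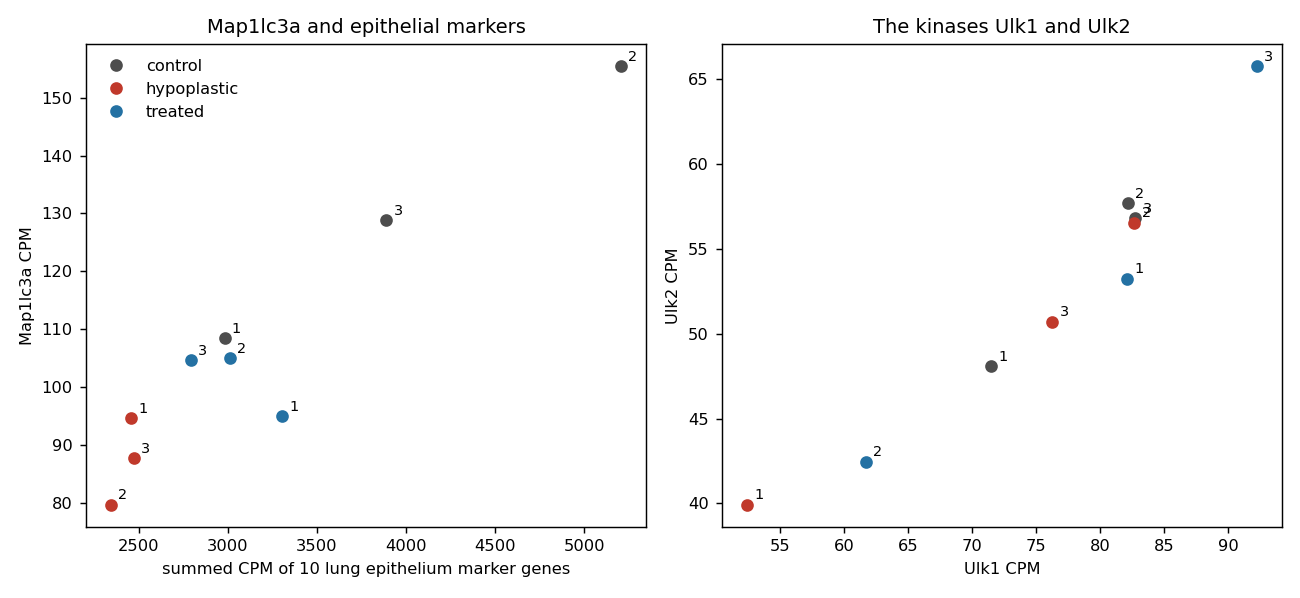
Left, Map1lc3a CPM against the summed CPM of 10 lung epithelium markers; right, Ulk2 CPM against Ulk1 CPM; each point is 1 of 9 libraries, coloured by group and labelled with its replicate number. Hypoplastic libraries are lowest on both left-hand axes (79.64 to 94.59 CPM for Map1lc3a) and control library 2 is highest, while on the right the groups are mixed along 1 line.

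Map1lc3b, which encodes LC3B, the LC3 protein most used as a marker of autophagosomes, was at 92.69, 112.7 and 94.23 CPM in control, 83.32, 96.9 and 92.49 CPM in hypoplastic and 102.3, 96.4 and 100.9 CPM in treated libraries. Apart from control library 2 the values lay between 83.32 and 102.3 CPM, and the groups overlapped. In log2 terms the change was -0.14 (SE 0.105, -0.372 to 0.1) for hypoplastic against control and 0.14 (SE 0.105, -0.1 to 0.372) for treated against hypoplastic. The ratio of Map1lc3a to Map1lc3b CPM does not depend on the library scaling and was computed after the values were seen. It was 1.17 to 1.38 in control, 0.822 to 1.14 in hypoplastic and 0.929 to 1.09 in treated libraries. The uncertainty in the level of Map1lc3b given above applies to this ratio too. Between control and hypoplastic libraries the margin was narrow (1.17 against 1.14).

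Among the members, Atg2a was most like Map1lc3b over the 9 libraries, with an r of 0.829 (rho 0.767, and 0.789 without the 2 libraries farthest from the Atg2a median). Rptor (r 0.769) and Pik3c3 (r 0.76) followed. With the 2 libraries farthest from the median left out, these r were 0.341 and 0.494.

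Gabarap, the founding gene of the GABARAP branch, was at 305.4, 291.2 and 320.6 CPM in control, 364.0, 324.3 and 347.8 CPM in hypoplastic and 262.9, 338.3 and 294.0 CPM in treated libraries. All hypoplastic libraries lay above all control libraries, by a narrow margin, and the treated libraries overlapped both. The fold change of Gabarap, as log2, was 0.18 (SE 0.112, edgeR adjusted p 0.543) for hypoplastic against control and -0.21 (SE 0.112, edgeR adjusted p 0.901) for treated against hypoplastic.

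Gabarapl1 was at 177.1, 135.8 and 204.5 CPM in control, 216.6, 224.3 and 197.0 CPM in hypoplastic and 147.6, 180.4 and 220.1 CPM in treated libraries. Control library 2 and treated library 1 were the lowest, and the groups overlapped. Its log2 fold change was 0.30 (SE 0.175, -0.09 to 0.695, edgeR adjusted p 0.506) for hypoplastic against control, the largest of the members above 0, and -0.22 (SE 0.175, -0.611 to 0.173) for treated against hypoplastic.

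Gabarapl2 was at 83.6, 113.8 and 76.41 CPM in control, 77.97, 76.97 and 90.13 CPM in hypoplastic and 81.12, 85.87 and 82.02 CPM in treated libraries. Control library 2 stood above the other 8, and without it the log2 fold change of hypoplastic against control, -0.16 with all libraries (SE 0.145, -0.486 to 0.166), was 0.0289. The value for treated against hypoplastic was 0.02 (SE 0.145, -0.303 to 0.349).

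**Figure D4:**
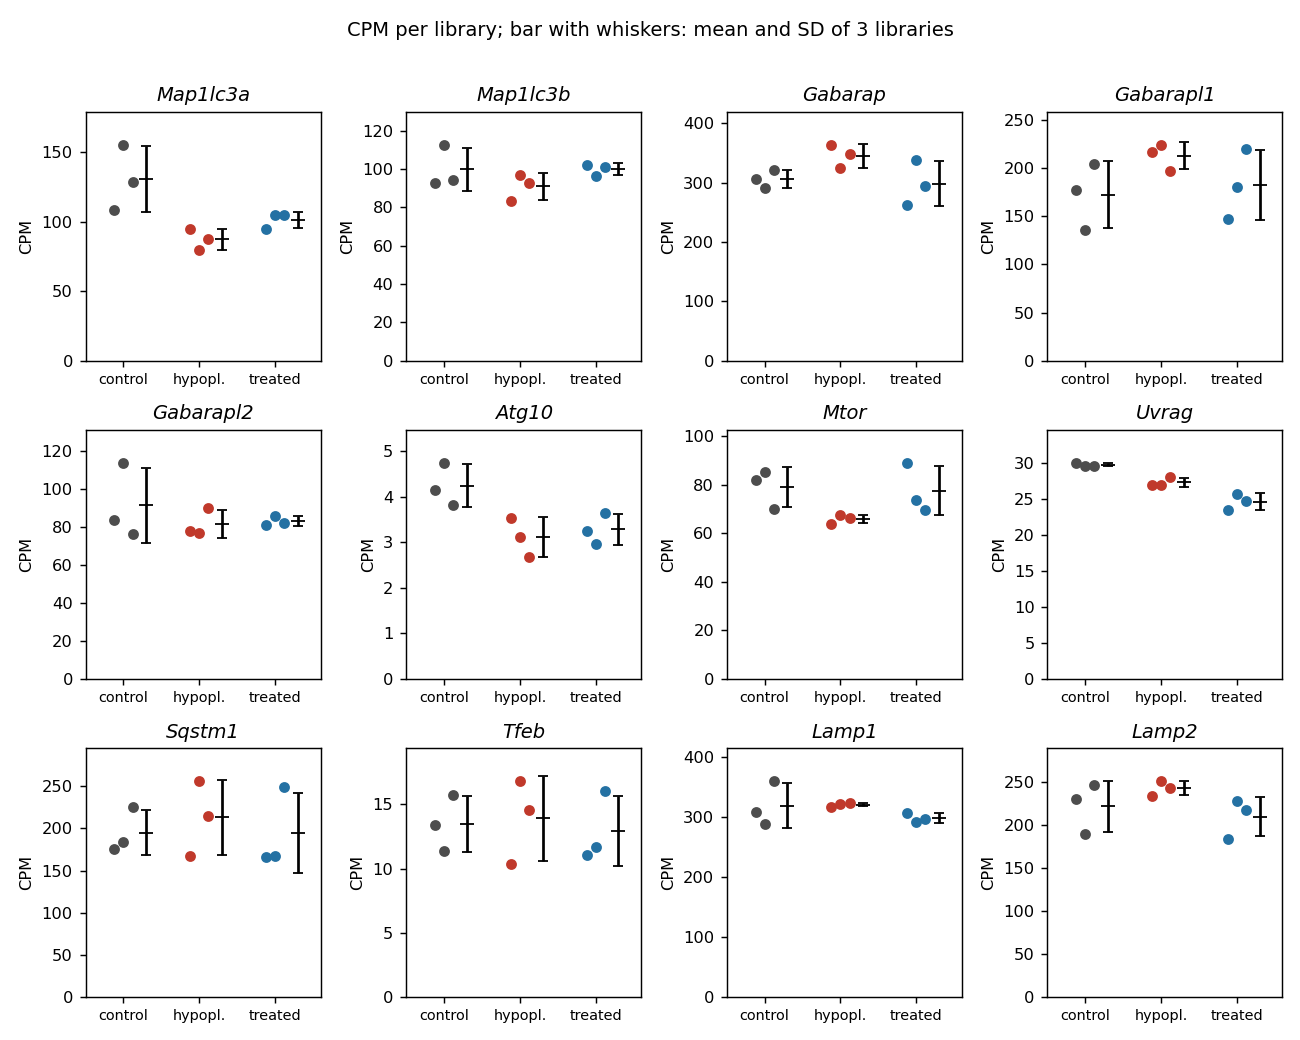
CPM of 12 autophagy genes in each library (points, 3 per group), with the mean and SD of the group as a bar with whiskers; vertical axes start at 0. Uvrag and Map1lc3a show groups without overlap (Map1lc3a at 108.4 to 155.5 CPM in control and 79.64 to 94.59 CPM in hypoplastic libraries), while Sqstm1 and Tfeb spread as widely within groups as between them. For Map1lc3a the lowest treated library, at 94.98 CPM, lies only just above the hypoplastic libraries.

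Cargo receptors link ubiquitin-tagged cargo to Atg8 proteins. Sqstm1, the best-known receptor, was at 176.1, 183.5 and 225.5 CPM in control, 167.2, 256.6 and 215.3 CPM in hypoplastic and 166.1, 167.1 and 249.0 CPM in treated libraries. The groups overlapped almost completely. Its log2 fold change was 0.13 (SE 0.2, -0.322 to 0.577) for hypoplastic against control and -0.13 (SE 0.2, -0.584 to 0.315) for treated against hypoplastic. Both turned sign without hypoplastic library 2, to -0.0285 and 0.0214.

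Rb1cc1 (r 0.953), Tfeb (r 0.933) and Atg13 (r 0.879) were the members most like Sqstm1 over the 9 libraries. For deviations from the group means these r were 0.959, 0.941 and 0.888. Macrophage markers, a list of 6 genes with Marco under 1 CPM, summed to 175.1 CPM in hypoplastic library 2 and 134.0 CPM in treated library 3, the 2 libraries highest in Sqstm1, and to 20.67 to 91.07 CPM in the other 7. The part of macrophages in the level of Sqstm1 was not tested.

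Nbr1, a receptor of similar build, was at 195.6 CPM ± 24.1 in control, 194.5 CPM ± 16.4 in hypoplastic and 187.4 CPM ± 29.3 in treated lungs (SD, n = 3). Its r with Tfeb was 0.919. Optn (optineurin), a receptor for mitochondria and bacteria, was at 11.95 to 14.58 CPM in 7 libraries, at 18.4 CPM in hypoplastic library 2 and at 16.91 CPM in treated library 2.

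The regulators hold the brake of the pathway, the kinase Mtor with its partner Rptor (raptor), and the transcription factors Tfeb and Tfe3, which mTOR keeps out of the nucleus and which switch on lysosome and autophagy genes. Mtor was at 82.01, 85.22 and 69.82 CPM in control, 64.02, 67.39 and 66.22 CPM in hypoplastic and 89.11, 73.8 and 69.79 CPM in treated libraries. The hypoplastic libraries were the lowest and close together, and the other groups overlapped each other. The log2 fold change was -0.26 (SE 0.118, unadjusted p 0.0521, edgeR adjusted p 0.407) between hypoplastic and control lungs. Between treated and hypoplastic lungs it was 0.24 (SE 0.118, edgeR adjusted p 0.901), or 0.13 without treated library 1. Rptor was at 75.13 CPM ± 5.07, 70.52 CPM ± 6.58 and 75.03 CPM ± 5.4 (SD, n = 3) in control, hypoplastic and treated lungs.

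Tfeb was at 13.42, 11.33 and 15.72 CPM in control, 10.34, 16.84 and 14.57 CPM in hypoplastic and 11.05, 11.67 and 16.08 CPM in treated libraries. Each group held low and high libraries. In log2 terms the change was 0.04 (SE 0.221, -0.451 to 0.537) for hypoplastic against control and -0.11 (SE 0.22, -0.6 to 0.388) for treated against hypoplastic, and it turned sign without control library 2 (-0.0686, first comparison) or hypoplastic library 2 (-0.1179 and 0.0552).

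Tfe3 was at 31.27, 31.09 and 41.62 CPM in control, 30.38, 47.34 and 43.44 CPM in hypoplastic and 39.58, 32.34 and 47.15 CPM in treated libraries. The groups overlapped here too. Its log2 fold change was 0.22 (SE 0.201, -0.232 to 0.671) for hypoplastic against control and -0.03 (SE 0.201, -0.476 to 0.426) for treated against hypoplastic.

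Lamp1 and Lamp2 encode the main glycoproteins of the lysosomal membrane, and Lamp2 also serves autophagosome fusion. Lamp1 was at 309.0, 288.1 and 360.7 CPM in control, 317.6, 322.2 and 323.3 CPM in hypoplastic and 307.3, 291.6 and 297.7 CPM in treated libraries. The treated libraries lay below the hypoplastic libraries without overlap, and the control libraries spanned both. The fold change of Lamp1, as log2, was 0.0081 (SE 0.102, -0.22 to 0.236) for hypoplastic against control, with a sign that turned with the sex covariate (-0.0176) and without control library 1 (-0.0106) or 2 (-0.0617). It was -0.10 (SE 0.102, -0.332 to 0.125) for treated against hypoplastic.

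Lamp2 was at 230.5, 189.1 and 246.5 CPM in control, 234.3, 251.5 and 243.4 CPM in hypoplastic and 183.9, 228.1 and 217.5 CPM in treated libraries. As for Lamp1, all treated libraries lay below all hypoplastic libraries. The log2 fold change was 0.13 (SE 0.123, -0.146 to 0.407) for hypoplastic against control and -0.21 (SE 0.123, unadjusted p 0.117, edgeR adjusted p 0.915) for treated against hypoplastic.

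TFEB and TFE3 proteins bind sites with the E-box letters CACGTG at their core. The RefSeq promoter table (build GRCr8, 250 bases before to 50 after each gene's start) held windows for 36 of the 41 members (not Rb1cc1, Becn1, Atg9a, Map1lc3a and Rptor), and 4 of them (11.1%) contained these letters. CACGTG is its own reverse complement, so a match stands on both strands. The share was 22.2% of 90 windows of the other pathway genes listed below, 9.44% of 9299 genes at a mean of at least 1 CPM and 6.65% of all 27457 windows. The 4 windows are printed, each on the strand of its gene, to show how the matches lie, with CACGTG in capitals.
Lamp1 (GRCr8 chr16:83075014-83075313, minus strand): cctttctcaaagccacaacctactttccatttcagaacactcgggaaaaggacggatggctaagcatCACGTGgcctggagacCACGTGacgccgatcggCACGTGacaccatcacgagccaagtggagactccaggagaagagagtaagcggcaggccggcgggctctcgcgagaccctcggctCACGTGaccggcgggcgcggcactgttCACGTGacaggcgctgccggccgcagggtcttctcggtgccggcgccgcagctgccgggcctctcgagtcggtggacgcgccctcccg
Atg3 (GRCr8 chr11:69159231-69159530, minus strand): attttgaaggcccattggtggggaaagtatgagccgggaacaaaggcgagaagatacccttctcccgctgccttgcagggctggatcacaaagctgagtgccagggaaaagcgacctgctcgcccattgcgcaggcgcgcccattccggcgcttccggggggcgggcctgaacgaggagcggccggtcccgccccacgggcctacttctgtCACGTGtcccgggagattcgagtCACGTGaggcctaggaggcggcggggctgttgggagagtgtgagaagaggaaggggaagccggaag
Atg5 (GRCr8 chr20:49380585-49380884, plus strand): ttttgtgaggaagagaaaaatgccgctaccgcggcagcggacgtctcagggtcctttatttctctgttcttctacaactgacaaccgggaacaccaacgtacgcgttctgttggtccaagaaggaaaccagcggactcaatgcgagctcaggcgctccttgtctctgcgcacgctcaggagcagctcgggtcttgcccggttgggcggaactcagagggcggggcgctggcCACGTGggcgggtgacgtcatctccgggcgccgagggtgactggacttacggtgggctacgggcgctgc
Atg14 (GRCr8 chr15:23306766-23307065, minus strand): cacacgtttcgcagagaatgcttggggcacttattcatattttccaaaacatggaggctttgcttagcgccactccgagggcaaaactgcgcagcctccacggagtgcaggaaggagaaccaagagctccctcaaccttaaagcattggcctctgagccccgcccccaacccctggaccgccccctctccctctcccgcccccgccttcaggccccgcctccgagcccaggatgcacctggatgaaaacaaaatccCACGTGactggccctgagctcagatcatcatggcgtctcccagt
The matches of Lamp1 began 183, 167, 150, 65 and 38 bases before the start. Those of Atg3 began 39 and 16 bases before it, and that of Atg5 19 bases before it, while the match of Atg14 began at base 7 of the transcript. At least 2 matches were in 0.554% of all windows, and at least 5 in 1 of 27457, that of Lamp1, a number set after it was seen. A match is a string of letters and not a shown binding site. On the log2 scale hypoplastic and control lungs differed by 0.0081 in Lamp1 and by 0.03, -0.17 and -0.09 in Atg3, Atg5 and Atg14.

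Other genes of autophagy and the lysosome, a list of 116 symbols of which 107 were in the table and tested, gave the wider pathway. No gene of this list passed edgeR's adjusted threshold in any comparison. For hypoplastic against control 49 were above 0 and 58 below, with a median log2 fold change of -0.03. At an unadjusted p under 0.05 there were 4 higher and 15 lower, against the background of 6.67% and 5.69% given above. For treated against hypoplastic 0 were higher and 1 lower (background 2.0% and 3.56%), and for treated against control 0 higher and 6 lower (background 1.67% and 2.5%). DESeq2 called 1 gene of the list, Ctsh, for hypoplastic against control (adjusted p 0.0221), and 0 in the others, while limma voom called 0.

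Ctsh, a lysosomal protease that also processes surfactant proteins, was at 195.3, 535.5 and 312.9 CPM in control, 153.6, 161.9 and 175.4 CPM in hypoplastic and 186.4, 201.1 and 158.5 CPM in treated libraries. Control library 2, which was also highest in epithelial and red cell markers, was far above the others. In log2 terms the change was -1.09 (SE 0.293, edgeR adjusted p 0.317) for hypoplastic against control and -0.93 (SE 0.292, edgeR adjusted p 0.998) for treated against control. Vamp8, a SNARE of autophagosome fusion, was at 18.54, 27.84 and 21.47 CPM in control and 17.0, 15.1 and 13.18 CPM in hypoplastic libraries. It differed by -0.58 on the log2 scale (SE 0.165, edgeR adjusted p 0.317). The part of the epithelium or of other cell types in these values was not tested.

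Lysosomal proteases differed in direction among themselves. Ctsb was at 427.6, 541.3 and 509.9 CPM in control, 570.4, 787.8 and 633.7 CPM in hypoplastic and 513.2, 544.7 and 717.2 CPM in treated libraries. Its log2 fold change of hypoplastic against control was 0.43 (SE 0.171, edgeR adjusted p 0.37), and that of treated against control 0.26 (SE 0.171, edgeR adjusted p 0.998). Ctsb and the related Ctsd, with a change of 0.39 (SE 0.166, edgeR adjusted p 0.39), were both highest in hypoplastic library 2. That library was also the highest in macrophage (175.1 CPM), neutrophil (181.4 CPM) and lung mesenchyme and endothelium markers (6800 CPM). The part of these cell types in Ctsb and Ctsd was not tested.

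Of 15 fusion genes 12 had a log2 fold change below 0 for hypoplastic against control, with a median of -0.15, and 4 of them had an unadjusted p under 0.05 (background 48.1% of all genes below 0 and 5.69% lower at that p). Snap29, a partner of Vamp8 in fusion, was at 44.2, 52.06 and 41.44 CPM in control, 35.12, 39.24 and 36.49 CPM in hypoplastic and 44.24, 41.98 and 44.46 CPM in treated libraries. The treated and control libraries all lay above the hypoplastic libraries, with log2 fold changes of -0.31 (SE 0.109, edgeR adjusted p 0.341) for hypoplastic against control and 0.24 (SE 0.109, edgeR adjusted p 0.901) for treated against hypoplastic. Prkab1, a subunit of the energy sensor AMPK, was at 34.41, 37.55 and 30.78 CPM, 28.68, 28.35 and 27.26 CPM, and 35.05, 32.85 and 30.28 CPM in the control, hypoplastic and treated libraries. Its log2 fold change of treated against hypoplastic was 0.22 (SE 0.109, edgeR adjusted p 0.901).

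The 16 vacuolar ATPase subunits, which acidify the lysosome, had a median log2 fold change of 0.08 for hypoplastic against control and -0.06 for treated against hypoplastic. Atp6v1a was at 177.7, 198.2 and 183.3 CPM in control, 154.5, 149.2 and 157.3 CPM in hypoplastic and 147.6, 150.0 and 162.3 CPM in treated libraries. All hypoplastic and treated libraries lay below the control libraries, and the change of treated against control was -0.28 (SE 0.0869, unadjusted p 0.00928, edgeR adjusted p 0.998). Atp6ap2, an accessory subunit, was at 36.02, 26.56 and 32.23 CPM, 40.59, 38.32 and 37.25 CPM, and 28.65, 33.74 and 31.85 CPM in control, hypoplastic and treated libraries. It differed by -0.30 (SE 0.128, unadjusted p 0.0412, edgeR adjusted p 0.896) between treated and hypoplastic lungs. Sec62, a receptor for endoplasmic reticulum, had the smallest p among genes above 0 for treated against control, at 0.25 (SE 0.148, edgeR adjusted p 0.998).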

How the data were processed

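The authors deposited 1 table of estimated counts per gene (NCBI Gene ID) with 9 library columns, of which 19.5% of the nonzero values were exactly whole. The tests had been planned for whole counts, so these values were rounded. Per the submitters' processing notes rn7 and DESeq2 were used. No source used here names the aligner, counter or annotation. Symbols came from the RefSeq table of GRCr8 and matched 17314 of 17465 IDs. Levels were not compared between genes, since no transcript lengths were used.

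Genes were kept by filterByExpr (12966 kept, 4499 set aside) and tested with edgeR 4.0.16 (glmQLFit, legacy=FALSE; R 4.3.3) after TMM scaling, in 1 fit of all 9 libraries with a term per group, with Benjamini-Hochberg adjustment over all genes and a threshold of 0.05. Standard errors are the absolute change over the root of F, and intervals use the fit's degrees of freedom. The fits were checked on simulated data. Nothing says whether the lungs came from separate fetuses or litters, so p-values measure the spread between these samples. Ribosomal and 7SL RNA held 14.1 to 19.9% of the counts.

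Alternatives were RLE factors, DESeq2 1.42.0, limma 3.58.1 voom, other filters, only the libraries compared, the replicate block, a sex covariate from Xist, removal of ribosomal rows, and each library left out. Values are given for 15 members fixed by name, the 6 members of smallest p in each comparison, and up to 2 other pathway genes of smallest p per direction. One gene named by this rule is not reported here. The members, lists and rules were chosen with earlier results of these data known. Protein sequences were not used here.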

Additional observations from a re-analysis of the deposited data

How the results depend on the processing

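No member was called by edgeR or limma voom under any alternative. DESeq2 called 1 member and 1 other pathway gene for hypoplastic against control and 0 in the other comparisons. With 1 library left out edgeR called 0 members and 0 other pathway genes in each comparison. Members at an unadjusted p under 0.05 for hypoplastic against control were 2, and 1 with limma voom, without a filter on low counts, with the replicate block and with the sex covariate. With 1 library left out they were 1 to 5. In treated against hypoplastic they were 0 to 2 and in treated against control 0 to 2. The medians of the log2 fold changes ran from -0.1333 to -0.0158, -0.0606 to 0.0318 and -0.0967 to -0.02 in the 3 comparisons with 1 library left out. None moved from its value with all libraries by more than 0.0822, the SD within groups between libraries of the median member. That SD is close in size to the first median with all libraries, -0.0852, and larger than the others, 0.0042 and -0.0442. It therefore cannot show that the medians were stable.

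Of 585 alternatives of the single members 567 kept direction and side of the threshold, 1 passed it (Map1lc3a by DESeq2) and 17 changed sign. One of these was Lamp1 with the sex covariate (-0.0176). The others left out 1 library, where hypoplastic against control ran from -0.2925 to 0.0118 for Ulk1, -0.2733 to 0.0289 for Gabarapl2, -0.0285 to 0.2741 for Sqstm1, -0.1179 to 0.2178 for Tfeb and -0.0617 to 0.1043 for Lamp1. Treated against hypoplastic ran from -0.014 to 0.3089 for Ulk1, -0.0175 to 0.1012 for Gabarapl2, -0.3536 to 0.0214 for Sqstm1, -0.2906 to 0.0552 for Tfeb and -0.1932 to 0.1055 for Tfe3. The cause was not tested. Nothing in the labels pairs lungs by replicate number, and same-numbered libraries correlated by -0.271 to 0.211 in their deviations from the group means (over 0.1 in 3 of 9 pairs). Differently numbered libraries of different groups correlated by -0.426 to 0.373 (over 0.1 in 6 of 18 pairs). With the replicate block 0 members were called in each comparison.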

Other observations

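Some members ran opposite to each other over the 9 libraries, a rule added after the values were seen. The lowest Pearson r of log2 CPM among the 820 pairs was that of Vmp1, which supplies membrane, and Atg3, a transfer enzyme, at -0.919 (-0.937 without the 2 libraries farthest from the median). Becn1 and Sqstm1 had an r of -0.902 and Gabarapl1 and Mtor also one of -0.902, which were -0.769 and -0.77 without those libraries. For deviations from the group means the 3 values were -0.988, -0.926 and -0.874. These are descriptions over libraries that share depth, scaling and group. Lung mesenchyme and endothelium markers summed to 6800 CPM in hypoplastic library 2, the highest in Sqstm1 and the lowest in Becn1, and to 1110 to 2690 CPM in the other 8. Their part in these pairs was not tested.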
